A study of Mus musculus with 9 samples.

Results

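Heat shock chaperones of the cytosol and of the mitochondrial matrix are described here in the liver of aged mice, through 10 genes chosen by symbol: Hspa1a, Hspa1b, Hspa8, Hsph1, Hsp90aa1, Hsp90ab1, Dnajb1, Hspb1, Hspd1 and Hspe1. All 10 have a row among the 27179 genes of the deposited table, and 9 of them, all but Hspa1a, reached the mean of 10 normalized counts required for the test between groups. The mice were C57BL/6J, of genotype WT, aged 17 months when they received AAV8 by retro-orbital injection at 3e+11 vector genomes per mouse. In every animal the vector carried saCas9 (a small Cas9 nuclease) under the hepatocyte-active TBG promoter, so that both groups had the nuclease and a guide RNA. The U6-driven guide was directed at Rosa26, a locus commonly used as a neutral cutting control, in 4 mice (sgRosa26, libraries A to D) and at Ccnd1, the gene of cyclin D1, in 5 mice (sgCcnd1, libraries E to I). The m-lobe of the liver was frozen 3 weeks later and its poly(A) RNA sequenced in bulk, so transcripts of cells other than hepatocytes were measured as well. The letters follow the order of the table's columns, which name a guide target but no replicate number.

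Heat shock proteins bind unfolded or partly folded proteins and return them to a native state or to degradation. In the cytosol, HSP70 proteins bind short hydrophobic stretches in a cycle driven by ATP, J-domain proteins deliver the client and stimulate ATP hydrolysis, and HSP110 proteins release the nucleotide. HSP90 acts later, on kinases, steroid receptors and other clients that are nearly folded. In mitochondria, the HSP60 chaperonin folds imported proteins inside a chamber closed by its lid, HSP10. Heat, oxidants and other sources of misfolded protein activate the transcription factor HSF1, which binds heat shock elements, arrays of the unit nGAAn in alternating orientation. The liver, with its large output of protein and its load of metabolic oxidants, holds high levels of the constitutive forms.

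The stretches before the transcription starts show what these genes share in sequence, and where a count cannot be assigned with certainty to one of a pair. RefSeq windows of 250 bases before an annotated start (GRCm38.p6) were at hand for 7 of the 10 genes: Hspa1a, Hspa1b, Hsph1, Dnajb1, Hspb1, Hspd1 and Hspe1. They were searched on both strands for the heat shock pairs GAANNTTC and TTCNNGAA, each of which reads the same on either strand and which overlap in longer arrays. The stretches below are given 5′ to 3′ on the strand of the gene, with matches to these pairs in capitals. The first 2 are the near-identical stretches of the inducible HSP70 copies, at chr17:34972157-34972406 (Hspa1a, minus strand) and chr17:34959239-34959488 (Hspa1b, minus strand). The third, with 2 separate matches, is that of Hspb1 at chr5:135887669-135887918 (plus strand).
Hspa1a: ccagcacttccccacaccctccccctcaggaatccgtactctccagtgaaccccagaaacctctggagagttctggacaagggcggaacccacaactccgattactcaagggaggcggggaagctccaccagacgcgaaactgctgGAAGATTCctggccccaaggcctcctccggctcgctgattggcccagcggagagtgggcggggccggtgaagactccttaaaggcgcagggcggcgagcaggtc
Hspa1b: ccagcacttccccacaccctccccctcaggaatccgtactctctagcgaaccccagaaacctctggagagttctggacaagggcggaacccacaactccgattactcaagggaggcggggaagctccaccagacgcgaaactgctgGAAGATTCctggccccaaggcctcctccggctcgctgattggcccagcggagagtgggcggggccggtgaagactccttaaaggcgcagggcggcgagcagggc
Hspb1: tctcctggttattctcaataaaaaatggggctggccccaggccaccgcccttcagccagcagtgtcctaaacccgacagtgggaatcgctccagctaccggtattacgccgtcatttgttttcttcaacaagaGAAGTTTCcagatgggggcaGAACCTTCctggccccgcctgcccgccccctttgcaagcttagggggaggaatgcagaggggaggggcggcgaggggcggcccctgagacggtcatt

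Hspd1 and Hspe1 lie head to head on chromosome 1, and the Hspe1 window and the window of the second annotated Hspd1 start hold the longest array found among the 7 genes. The window of the first Hspd1 start holds no heat shock pair. The array is shown with its flanks at chr1:55088053-55088082, on the strand of Hspe1. The single pair of Hsph1, which encodes HSP110, is shown the same way at chr5:149636351-149636380 (minus strand).
Hspe1: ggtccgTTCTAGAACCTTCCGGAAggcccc
Hsph1: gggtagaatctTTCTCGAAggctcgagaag

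The stretches of Hspa1a and Hspa1b were identical at 247 of 250 bases (98.8%). Counted from 1 at the 5′ end of the printed stretch, the differences from Hspa1a to Hspa1b were C44T, T47C and T249G, none of them in the heat shock pair, which began 104 bases before the start in both. In Hspb1 the matches began 117 and 97 bases before the start. The array of the mitochondrial pair began 89 bases before the Hspe1 start and 144 bases before the second annotated start of Hspd1. It joined 3 overlapping pairs, so that 3 or more alternating units stood in a row, which was searched as a motif of its own. At least 1 heat shock pair was found for 6 of the 7 genes, against 14.5% of the 27025 genes with such a window, and the longer array for 2 of 7, against 0.514%. Hspd1 and Hspe1 share the same array, and Hspa1a and Hspa1b are near-identical, so these counts by gene are not counts of separate sites. In the windows of Dnajb1, at either of its annotated starts, these letters did not occur. The GC box GGGCGG was found for 7 of 7 genes (35.4% of all genes), CCAAT for 4 (37.5%) and TATAAA for 0 (14.3%). The map of motif positions shows the same layout for the HSP70 copies and the shared array of Hspd1 and Hspe1. These matches are descriptions of sequence. The expression table says nothing on binding.

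**Figure D1:**
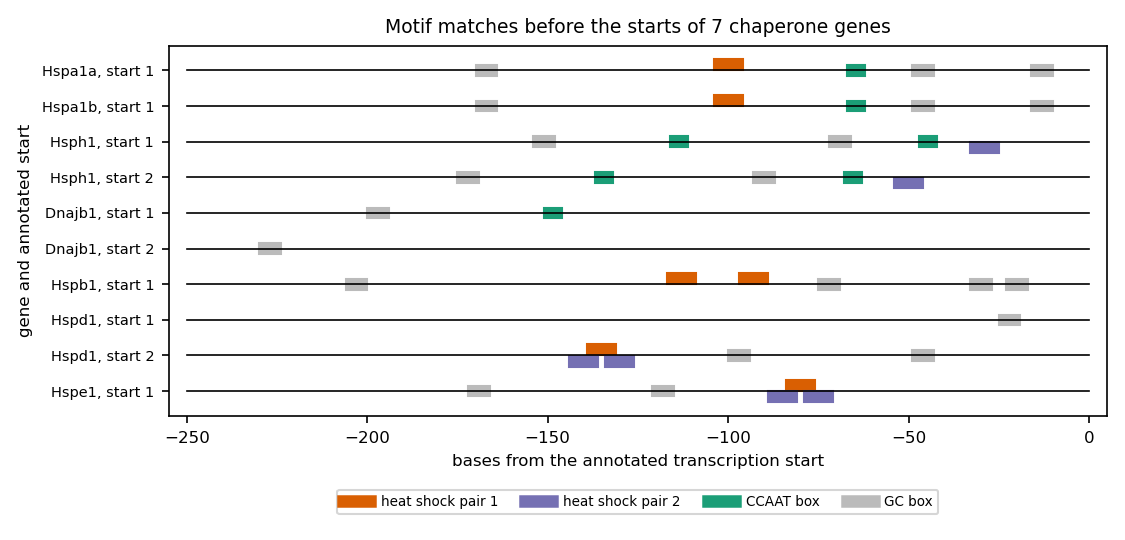
Motif matches in the 250 bases before each annotated transcription start of 7 chaperone genes (horizontal axis, bases from the start; vertical axis, gene and start). Heat shock pair 1 is GAANNTTC and pair 2 is TTCNNGAA. Hspa1a and Hspa1b have the same layout, and the overlapping pairs of Hspe1 begin 89 bases before its start.

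Library depth ranged from 10840595 gene-assigned reads in library I to 20176201 in library E. The targeted gene Ccnd1 was at 744 ± 110 normalized counts in sgRosa26 (SD, n = 4) and at 362 ± 40.6 in sgCcnd1 (SD, n = 5), with no overlap (log2 fold change -1.03, limma adjusted p = 0.0116). Without library B, D, F, H or I its limma adjusted p lay above 0.05, at most at 0.0852, and the log2 fold change lay between -1.11 and -0.96 whichever library was left out. Hepatocyte markers (Alb, Ttr, Apoa1, Serpina1c, Hnf4a and Cps1) summed to 1541092 to 2010826 normalized counts, and 0 of the 6 differed at an unadjusted p under 0.05. Library H of sgCcnd1 stands apart in Y-linked transcripts, with Ddx3y at 2.00 normalized counts where the other 8 had 810 to 1154. The counts of chaperone genes are therefore also given without H, and those of the other lists where they change without it.

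None of the 9 chaperone genes tested differed between the groups at an adjusted p under 0.05, a threshold that 0.0077% of all 12993 genes tested passed (1 gene, Ccnd1). Most of them were nevertheless higher in sgCcnd1 in the mean: the log2 fold change was positive for 8 of 9, all but Hspe1, against 52.9% of all genes tested. Its median over the 9 was 0.24, against 0.014 over all genes. At an unadjusted p under 0.05 there were 4 of 9 higher (Hsp90aa1, Hspd1, Hspa1b and Hsph1), where 5.22% of all genes were, and 0 of 9 lower, where 5.74% were. Only Hsp90aa1 had no overlap between the groups, with sgCcnd1 the higher; 1.92% of all genes had that. The reverse, all sgCcnd1 libraries below all controls, held for 0 of the 9 and for 1.97% of all genes. The smallest adjusted p by limma was 0.306, that of Hsp90aa1, and with DESeq2 on the recovered reads it was 0.143, that of Hspd1. Without library H, 3 of the 9 were higher at an unadjusted p under 0.05, against 3.72% of all genes, 8 of 9 were positive with a median of 0.20, and 1 of 9 had no overlap, against 2.39% of all genes. Without library B only Hsp90aa1 and Hspd1 of the 4 were left, against 3.77% of all genes, and without library I there were 6, against 3.89%. Hsph1 held its place only without D or I. With quantile normalization there were 2, against 4.39% of all genes. Rescaling to the 75th percentile turned the split of all genes at that level from 678 higher and 746 lower to 464 and 953. It left 3 of the 9 chaperones higher and 8 of 9 positive. Among the 8943 genes that reached a mean of 100, which include 8 of the 9 chaperones, the split was 586 higher and 351 lower and 59.9% of genes were positive, so that these genes leaned the same way as the chaperones. Of those 8 chaperones 3 were higher and 7 positive. As the genes were chosen with results of these data in view, the counts describe the list and test nothing.

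**Figure D2:**
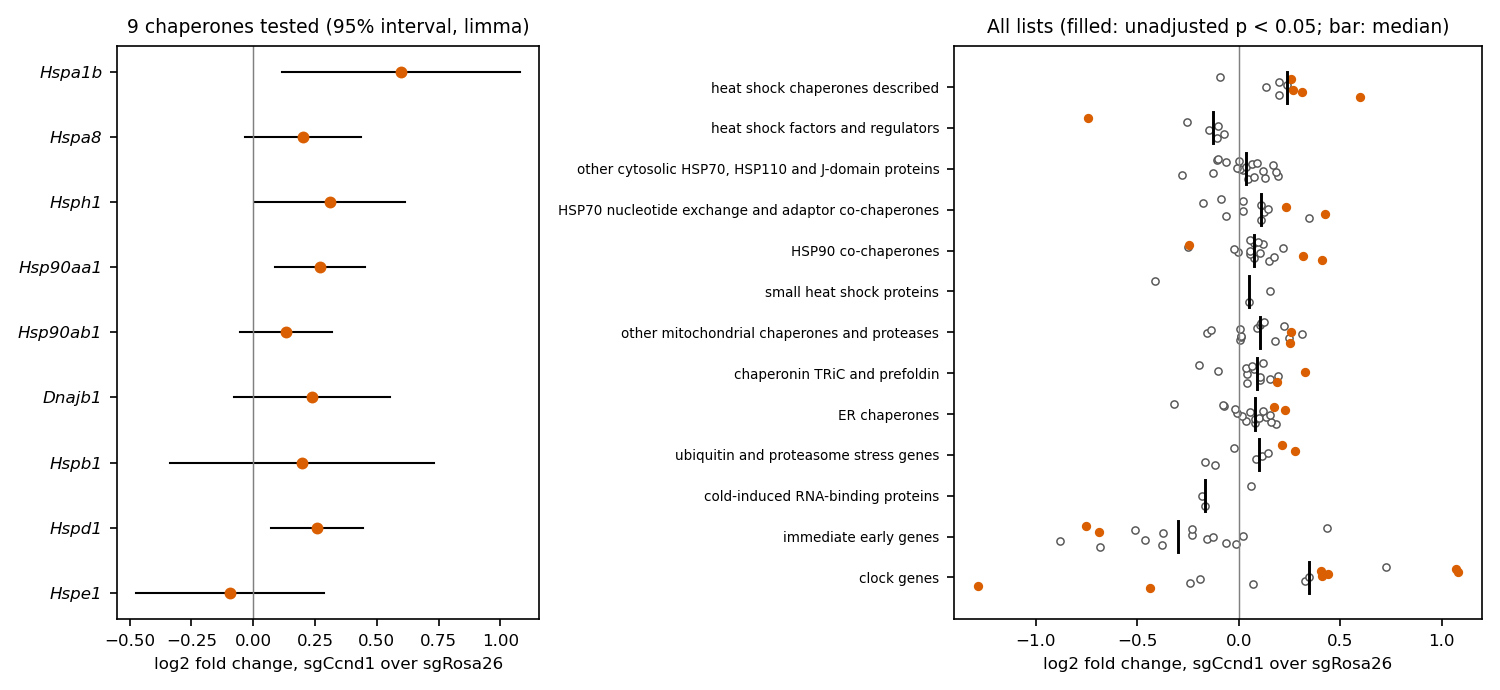
Left, log2 fold change of the 9 chaperone genes tested (horizontal axis, sgCcnd1 over sgRosa26) with the 95% interval of limma. Right, the same for every gene of the chaperone and context lists, filled where the unadjusted p was under 0.05, with the list's median as a bar. The intervals of Hspa1b, Hsph1, Hsp90aa1 and Hspd1 lie above 0, and no adjusted p was under 0.05.

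The stress-inducible HSP70 genes Hspa1a and Hspa1b encode nearly the same protein, lie 9951 bases apart on chromosome 17 and are kept low until HSF1 is active. Hspa1b (Entrez 15511, chr17:34956436-34959238) had 75, 39.4, 83.5 and 79.6 normalized counts in controls A to D, while sgCcnd1 libraries E to I had 102, 75.2, 121, 121 and 95.1. Library B was the lowest of all 9, and 4 of 5 sgCcnd1 libraries lay above the highest control, with F among the controls. The means were 69.4 ± 20.3 (SD, n = 4) and 103 ± 19.3 (SD, n = 5), for a log2 fold change of 0.60 (SE 0.222, 95% interval 0.12 to 1.08, limma adjusted p = 0.361). Without library B the log2 fold change was 0.35, and without any other single library it was 0.53 to 0.71.

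Hspa1a (Entrez 193740, chr17:34969190-34972156) was close to the detection floor everywhere. Controls A to D had 3.69, 0, 6.57 and 2.91 normalized counts and sgCcnd1 libraries E to I had 6.10, 1.79, 3.92, 6.00 and 0, which is 0 to 8 reads per library. The groups overlapped fully, with means of 3.29 ± 2.70 (SD, n = 4) and 3.56 ± 2.66 (SD, n = 5), and without the filter on low counts limma gave an adjusted p of 0.971 at a log2 fold change of 0.10. A floor of 3 reads corresponds to 2.29 to 4.26 normalized counts depending on the library. Over all 9 libraries Hspa1a took 33 reads and Hspa1b 807. Windows of 50 bases that do not occur in the other copy make up 41.2% of the Hspa1a and 37.7% of the Hspa1b transcript in GENCODE M21, so reads from the rest of either transcript fit both. Gm20481, a gene model on the opposite strand, covers 75% of the Hspa1a gene in the same annotation. It is not among the genes of the deposited table. How reads that fit both copies or both strands were counted is not given in the sources used here, so the split between the copies is uncertain. Summed into 1 gene, the copies had a limma adjusted p of 0.387 at a log2 fold change of 0.59.

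Hspa8 (Entrez 15481, chr9:40800984-40810087) encodes HSC70, the constitutive cytosolic HSP70. Controls A to D stood at 9138, 6961, 8248 and 8464 normalized counts, and sgCcnd1 libraries E to I at 9522, 10213, 10121, 9509 and 7772. Apart from library I, which fell among the controls, each sgCcnd1 library was above the highest control. The means of 8203 ± 910 (SD, n = 4) and 9427 ± 982 (SD, n = 5) gave a log2 fold change of 0.20 (SE 0.109, 95% interval -0.035 to 0.44, limma adjusted p = 0.520). It was 0.12 without library B and 0.097 with quantile normalization.

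Hsph1 (Entrez 15505, chr5:149614287-149636376), the HSP110 that exchanges the nucleotide of HSP70, had 454, 536, 450 and 594 normalized counts in controls A to D. In the sgCcnd1 libraries, E to I, the values were 733, 631, 609, 738 and 463. The same library I again lay among the controls while the other 4 sgCcnd1 libraries exceeded all of them. With means of 509 ± 69.8 (SD, n = 4) and 635 ± 112 (SD, n = 5), the log2 fold change was 0.31 (SE 0.140, 95% interval 0.0056 to 0.61, limma adjusted p = 0.449). It was 0.42 without library I and 0.25 without library H.

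Dnajb1 (Entrez 81489, chr8:83608193-83612653) encodes the main stress-inducible J-domain partner of HSP70. The controls had 262, 266, 310 and 367 normalized counts (A to D), and the sgCcnd1 group had 361, 394, 317, 437 and 274 (E to I). Only F and H exceeded the highest control, library D, and I was again near the bottom. The log2 fold change was 0.24 (SE 0.145, 95% interval -0.077 to 0.55, limma adjusted p = 0.565), from means of 301 ± 49.1 (SD, n = 4) and 356 ± 63.7 (SD, n = 5).

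**Figure D3:**
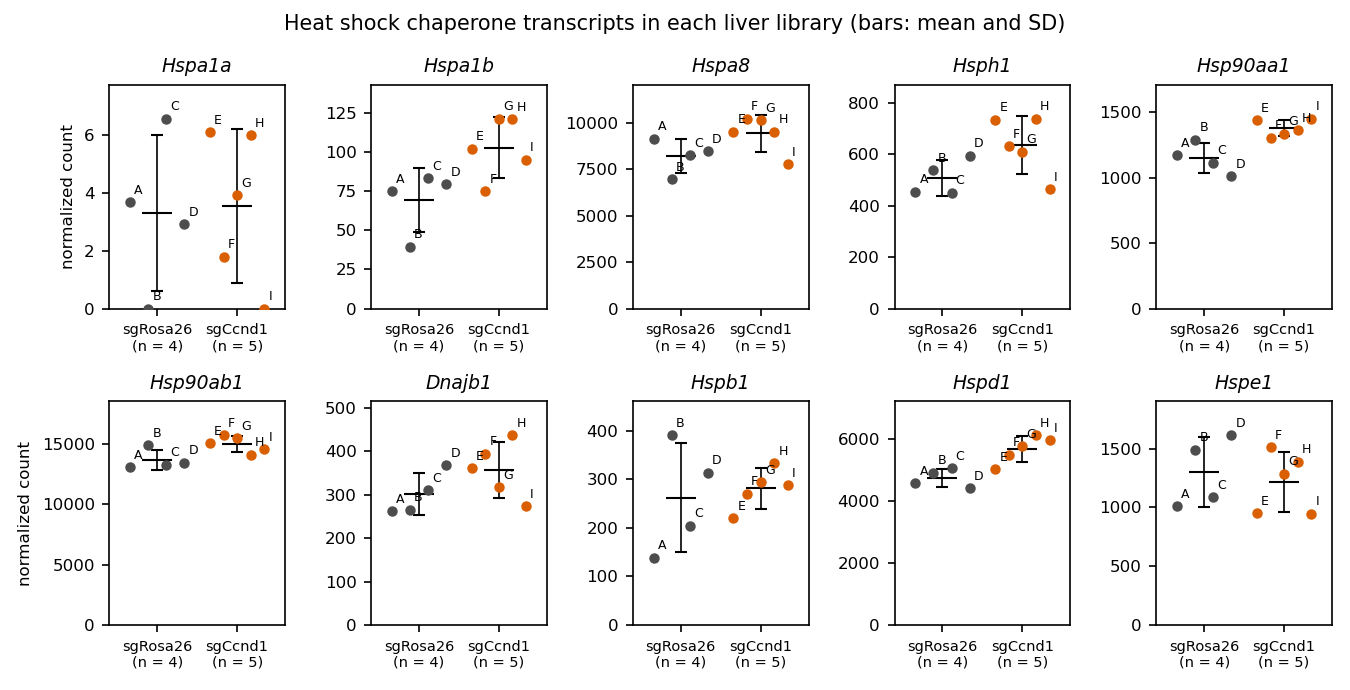
Normalized counts of the 10 chaperone genes in each library (points, lettered; vertical axes start at 0), with the mean and SD of sgRosa26 (n = 4) and sgCcnd1 (n = 5). The 5 sgCcnd1 libraries lie above all 4 controls for Hsp90aa1 only, and Hspa1a stays at or below 6.57 in every library.

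Of the cytosolic HSP90 pair, Hsp90aa1 encodes the stress-responsive alpha form and Hsp90ab1 the abundant constitutive beta form. Hsp90aa1 (Entrez 15519, chr12:110690605-110702728) was at 1173, 1289, 1114 and 1013 normalized counts in controls A to D and reached 1441.6, 1304, 1335, 1364 and 1450 in sgCcnd1 libraries E to I. Every sgCcnd1 library was above every control, although the gap between F and B was narrow. The means were 1147 ± 115 (SD, n = 4) and 1379 ± 64.6 (SD, n = 5), for a log2 fold change of 0.27 (SE 0.0838, 95% interval 0.087 to 0.45, limma adjusted p = 0.306, unadjusted p = 0.00717). Leaving out a library moved the log2 fold change between 0.21 (without D) and 0.33 (without B), with adjusted p from 0.262 to 0.543 in limma.

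Hsp90ab1 (Entrez 15516, chr17:45567775-45573271) had 13075, 14914, 13276 and 13451 normalized counts in controls A to D, and the sgCcnd1 values from E to I were 15036, 15725, 15480, 14121 and 14549. Control library B reached into the sgCcnd1 range, and 3 of 5 sgCcnd1 libraries exceeded it. From means of 13679 ± 838 (SD, n = 4) and 14982 ± 658 (SD, n = 5), the log2 fold change was 0.13 (SE 0.0855, 95% interval -0.053 to 0.32, limma adjusted p = 0.588), and 0.067 with quantile normalization. Hsp90ab1 was among the steadiest genes of the table: its SD within groups on the log2 scale was at percentile 2.37 of all genes tested, a scale on which Hsp90aa1 stood at 11.4 and Hspd1 at 9.87.

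Hspb1 (Entrez 15507, chr5:135887919-135889563) encodes HSP25, a small heat shock protein that holds unfolded proteins without using ATP. It was the most variable of the 9 genes, with its SD within groups at percentile 90.9. Controls A to D gave 139, 391, 205 and 314 normalized counts, sgCcnd1 libraries E to I 220, 270, 295, 334 and 288. The controls spanned both the lowest and the highest value, and 0 of 5 sgCcnd1 libraries lay above them. The group means were 262 ± 112 (SD, n = 4) and 281 ± 41.6 (SD, n = 5). The log2 fold change, 0.20 (SE 0.246, 95% interval -0.34 to 0.73, limma adjusted p = 0.796), became -0.071 without library A and 0.42 without library B. With DESeq2 on the recovered reads it was 0.090.

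The mitochondrial chaperonin genes are transcribed in opposite directions from starts that lie close together, and their gene models overlap by 96 bases in RefSeq and 112 in GENCODE M21. Hspd1 (Entrez 15510, chr1:55077835-55088243), which encodes HSP60, had 4573, 4913, 5057 and 4408 normalized counts in controls A to D. The sgCcnd1 libraries E to I had 5025, 5494, 5766, 6119 and 5954, of which only E lay within the control range. The means of 4738 ± 299 (SD, n = 4) and 5672 ± 430 (SD, n = 5) gave a log2 fold change of 0.26 (SE 0.0851, 95% interval 0.074 to 0.44, limma adjusted p = 0.328). Whichever library was left out, it was between 0.22 and 0.30, and with quantile normalization it was 0.16.

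Hspe1 (Entrez 15528, chr1:55088132-55091307), which encodes the HSP10 lid, was the single gene with a negative value. Its normalized counts in controls A to D, 1013, 1492, 1086 and 1615, compare with 950, 1512, 1288, 1388 and 948 in sgCcnd1 libraries E to I. Libraries E and I were the lowest of all 9 and D the highest, and the groups overlapped. The means were 1301 ± 297 (SD, n = 4) and 1217 ± 257 (SD, n = 5). The log2 fold change of -0.095 (SE 0.175, 95% interval -0.47 to 0.28, limma adjusted p = 0.879) turned to 0.019 without library D, was -0.21 without library A and was -0.16 with quantile normalization. The ratio of Hspe1 to Hspd1 within a library does not depend on the scaling of that library. It was -1.89 ± 0.371 (log2, SD, n = 4) in sgRosa26 and -2.24 ± 0.298 (log2, SD, n = 5) in sgCcnd1, a difference of -0.35 that did not pass the exact two-sided permutation test (p = 0.167, adjusted p = 0.167 over 3 ratios). The ratio of Hsp90aa1 to Hsp90ab1 was 0.14 higher in sgCcnd1 (log2; exact permutation p = 0.111, adjusted p = 0.167). That of Hspa1a plus Hspa1b to Hspa8 was 0.39 higher (log2; exact permutation p = 0.159, adjusted p = 0.167). This difference was 0.20 without library B and 0.53 without library F. Without library D that of Hspe1 to Hspd1 was -0.21 and that of Hsp90aa1 to Hsp90ab1 was 0.087. The inducible HSP70 pair amounted to 0.886% of the Hspa8 count in sgRosa26 and 1.15% in sgCcnd1.

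**Figure D4:**
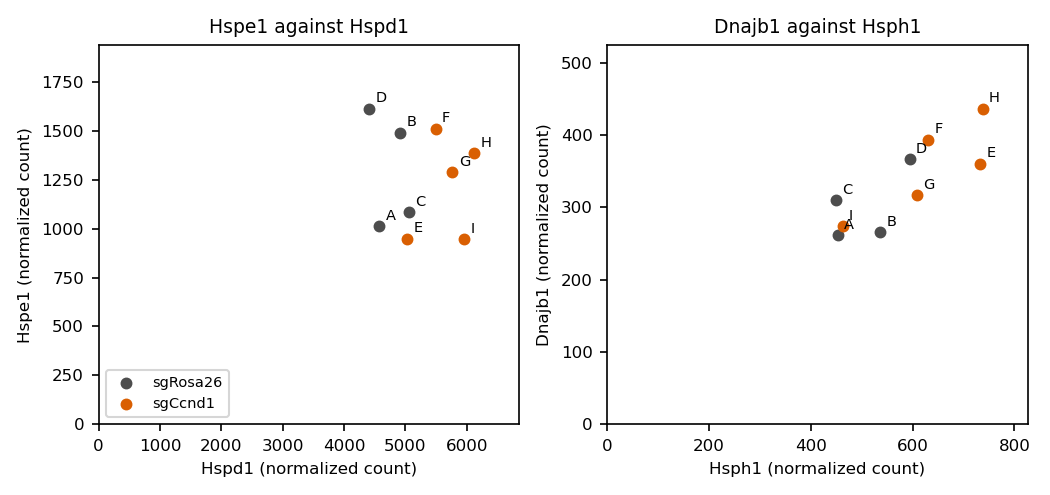
Normalized counts of Hspe1 against Hspd1 (left) and of Dnajb1 against Hsph1 (right) in the 9 libraries, by group; all axes start at 0. The left points show no common order, with a within-group r of 0.072, and the right points rise together, with a within-group r of 0.76.

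Per kilobase of the longest protein-coding transcript in GENCODE M21, the levels spanned the constitutive and the inducible forms widely. Hsp90ab1 led with a mean level of 5716 normalized counts per kb over the 9 libraries (range 5188 to 6240), followed by Hspa8 at 3711 (2908 to 4266) and Hspd1 at 2170 (1819 to 2526). Hspe1 came next at 1621 per kb (1225 to 2087), a range that overlaps that of Hspd1. Hsp90aa1 followed at 389, Hspb1 at 293, Hsph1 at 152 and Dnajb1 at 111 normalized counts per kb, and the ranges of neighbours among these 4 overlapped. Hspa1b at 31.4 (14.1 to 43.3) and Hspa1a at 1.16 (0 to 2.21) per kb were each separated from their neighbours in every library. The transcript models need not be those used for counting, and the split of reads between Hspa1a and Hspa1b is uncertain.

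The 9 genes did not move as a block from animal to animal. With group means removed, Pearson's r over the 9 libraries was above 0 for 21 of the 36 pairs, with a median of 0.052 and a range from -0.78 to 0.76. Its mean was 0.022, against 0.0011 over all pairs of genes tested. The highest r was that of Hsph1 and Dnajb1 (0.76). Hspb1 and Hspe1 followed at 0.72, and these are the members with the shortest transcripts, at 930 and 774 bases. The lowest were Hspa1b with Hsp90ab1 (-0.78), Dnajb1 with Hsp90aa1 (-0.67) and Hspa8 with Hsp90aa1 (-0.63). The bidirectional neighbours Hspd1 and Hspe1 had an r of 0.072. These values share the libraries and their scaling, rest on 9 animals and are given as a description.

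**Figure D5:**
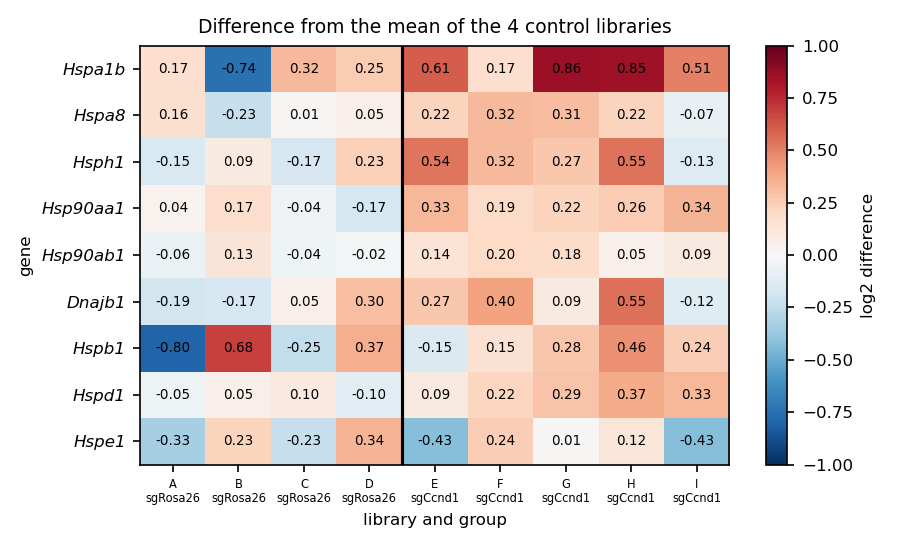
Log2 difference of each chaperone gene (rows) from the mean log2 value of the 4 control libraries, by library (columns; the first 4, A to D, are sgRosa26 and the other 5 sgCcnd1). Libraries F, G and H are above this log2 mean for 9 of 9 genes (Hspe1 in G by only 0.014), E for 7 and I for 5.

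Library by library, the number of the 9 genes above the control mean of the log2 values was 9 in F, 9 in G and 9 in H, 7 in E and 5 in I. In G, Hspe1 exceeded that mean by only 0.014 (log2), and its 1288 normalized counts lay below the control mean of 1301 on the linear scale. In the controls it was 3 in A, 6 in B, 4 in C and 6 in D. Library I, the shallowest, had Hspa8, Hsph1, Dnajb1 and Hspe1 below the control mean on either scale and Hsp90aa1 and Hspd1 at the upper end, as the heat map of differences shows. Outside the list, the genes whose levels followed the mean standardized level of the 9 most closely over the 9 libraries were Psmd13, a lid subunit of the proteasome (Pearson's r = 0.93), and Aldh7a1, a lysine-degrading dehydrogenase (0.93). Selenbp1, Klc4, Amz2, Arf1, Mfsd14a and Ddx28 followed, with r from 0.92 to 0.90. They were the top 8 of 8935 genes with a mean of at least 100, ranked on these same libraries. A search of that size over 9 libraries gives some high r in any case, so these values are a description. With group means removed the r of these 8 genes was 0.72 to 0.91, and the smallest adjusted p of the 8 was 0.337 (limma).

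Other genes of the chaperone network were read from lists fixed for this report, and 0 of their members passed the limma adjustment in either direction. With DESeq2, which called 0.549% of all genes lower, 1 of them passed, the clock gene Npas2 (lower). Their counts at an unadjusted p under 0.05 stand beside 5.22% higher and 5.74% lower, and their signs beside 52.9% positive, over all genes tested (59.9% positive among those that reached a mean of 100). For the transcript of HSF1 no difference was detectable, and the activity of the protein was not measured. Hsf1 had 260 ± 13.0 normalized counts in sgRosa26 (SD, n = 4) and 241 ± 15.2 in sgCcnd1 (SD, n = 5), with limma adjusted p = 0.668 at a log2 fold change of -0.11. All 6 heat shock factors and regulators tested had negative values, with a median of -0.13, and at an unadjusted p under 0.05 there was 1 lower and 0 higher. Of these, Hsf2bp, named for binding HSF2, was at -0.74 (limma adjusted p = 0.306) and Hsf4 at -0.14 (0.604). Among 19 other cytosolic HSP70, HSP110 and J-domain genes the median log2 fold change was 0.037, with 0 at an unadjusted p under 0.05. The members with the smallest p were Dnajb4 at 0.17, Hspa4l at 0.19 and Hspa13 at 0.18 on the log2 scale.

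Co-chaperones of HSP70 and HSP90 gave mixed values. Of 12 HSP70 nucleotide exchange and adaptor genes, 2 were higher at an unadjusted p under 0.05 and 0 lower, with a median log2 fold change of 0.11. They were Bag4, a BAG-domain release factor (log2 fold change 0.42, limma adjusted p = 0.259), and St13, which encodes the HSP70-interacting protein HIP (0.23, limma adjusted p = 0.359). Bag2 was at 0.35. Of 17 HSP90 co-chaperones, 2 were higher and 1 lower at that level, with a median of 0.078. Without library H there were 2 lower, where 558 of all 13025 genes tested were. Ptges3, the p23 protein that stabilizes the closed HSP90 dimer, went from 421 ± 26.5 normalized counts (SD, n = 4) to 525 ± 30.8 (SD, n = 5), with no overlap (log2 fold change 0.32, limma adjusted p = 0.253). Ahsa2, related to the HSP90 ATPase activator AHA1, was at 0.41 (limma adjusted p = 0.283) and Tomm34, which links HSP70 and HSP90 to mitochondrial import, at -0.25 (0.334), both without overlap. Only 3 of 8 small heat shock protein genes were tested, with Hspb8 at 0.15 and Hspb6 at 0.053, and 0 of the 3 were below an unadjusted p of 0.05. The third, Cryab, which encodes alpha B-crystallin and is named here after its values were seen, was at -0.41 (limma adjusted p = 0.457), the value farthest from 0 of the 3.

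In the mitochondrial group, 2 of 16 chaperones and proteases were higher and 0 lower at an unadjusted p under 0.05, and 14 of 16 were positive (11 without library H), against 52.9% of all genes, with a median log2 fold change of 0.11. Hspa9, the mitochondrial HSP70 that pulls in imported proteins, had 6848 ± 142 normalized counts in sgRosa26 (SD, n = 4) and 8177 ± 616 in sgCcnd1 (SD, n = 5), without overlap. Its log2 fold change was 0.25 (limma adjusted p = 0.316), next to 0.26 for its partner chaperonin Hspd1. Clpb was at 0.26 (limma adjusted p = 0.397) and the protease gene Htra2 at 0.22 (0.473). Of 14 genes of the cytosolic chaperonin TRiC and of prefoldin, 2 were higher and 0 lower at an unadjusted p under 0.05 (median 0.089). They were the TRiC subunits Cct8 at 0.33 (limma adjusted p = 0.310) and Cct2 at 0.19 (0.348), with Cct6a next at 0.19. Of 18 ER chaperones, 2 were higher and 0 lower (median 0.082), namely P4hb at 0.23 and Canx at 0.17, with Dnajc3 next at 0.14. Without library H 0 of the 18 were higher or lower, where 485 of all 13025 genes tested were higher and 558 lower. Of 8 ubiquitin and proteasome stress genes, 2 were higher and 0 lower (median 0.10): Psma3, a proteasome core subunit, at 0.28 (limma adjusted p = 0.270) and Nfe2l1, the factor that induces proteasome genes, at 0.21 (0.368), with Psmd12 next at 0.15.

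Genes that read body temperature, handling and time of day were examined beside these. Of the cold-induced RNA-binding protein genes, Cirbp was at -0.17, Rbm3 at -0.18 and Srsf5 at 0.062 on the log2 scale, with 0 of 3 at an unadjusted p under 0.05. Among 16 immediate early genes tested, 14 were negative (median -0.30) and 2 were lower at that level, against 0 higher. Without library H 1 of the 16 was lower, where 558 of all 13025 genes tested were. Myc was at -0.75 (limma adjusted p = 0.395), Btg2 at -0.37 and Jun at -0.38. Of 13 clock genes, 5 were higher and 2 lower at an unadjusted p under 0.05, with a median log2 fold change of 0.35. Npas2, which peaks with Bmal1, went from 116 ± 42.3 normalized counts (SD, n = 4) to 47.3 ± 16.8 (SD, n = 5), without overlap (log2 fold change -1.29, limma adjusted p = 0.225, DESeq2 adjusted p = 0.00362). Nr1d2 was at 0.44 (limma adjusted p = 0.282) and Tef at 0.41 (0.306). The part of the clock and immediate early genes in the chaperone values was not tested, and the labels give no time of harvest.

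Markers of other cells in the lobe moved with the groups in part. The 6 myeloid markers other than Kupffer cell markers (Lyz2, Cd68, Itgam, Ccr2, S100a8 and S100a9) summed to 1179 to 1355 normalized counts in sgRosa26 and 842 to 980 in sgCcnd1, without overlap. At an unadjusted p under 0.05, 3 of these 6 were lower, as were 4 of 4 T and NK cell, 1 of 5 B and plasma cell, 1 of 5 cholangiocyte and 1 of 6 stellate cell markers. Over all genes tested, 5.74% were lower at that level. Without library H, 1 of the 4 T and NK cell and 0 of the 6 stellate cell markers were lower, where 558 of all 13025 genes tested were. Of 6 Kupffer cell, 6 endothelial and 3 red cell markers, 0 were lower or higher at that level. Of all marker lists, 0 members passed the limma adjustment (0.0077% of all genes did), and DESeq2 called 2 myeloid markers lower (0.549% of all genes). T and NK cell markers summed to 62.7 to 168 normalized counts in sgRosa26 and 22 to 133 in sgCcnd1 (32.6 to 133 without library H). In bulk RNA, fewer cells of a type and less RNA per cell cannot be told apart, and the part of these cells in the chaperone values was not tested. No marker of any of these lists was at 0 in all libraries.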

How the data were processed

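Poly(A) RNA-seq of 9 liver libraries was used as the authors deposited it, a never-negative signal that the file name calls normalized counts. The submitters' processing notes name Trim Galore 0.6.7, HISAT2 2.2.1, featureCounts 2.0.3, FastQC 0.74, MultiQC, DESeq2 2.11.40.8 and the builds mm10 and GRCm38, without roles. Strand setting and treatment of multi-mapping reads are not given in the sources used here. All values (100%) were whole multiples, within 0.01, of the value of 1 read, so reads could be recovered. Columns carry no replicate number and were matched to groups only.

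The 12993 genes whose mean reached 10 normalized counts were tested as log2(normalized count + 1), which understates changes of low genes, with limma 3.58.1 in R 4.3.3 (eBayes with trend, two-sided, Benjamini-Hochberg over all genes tested, threshold 0.05). edgeR 4.0.16 (quasi-likelihood) and DESeq2 1.42.0, on recovered reads, were alternatives, beside other pseudocounts (0.1 and 10), filters and scalings and leaving out each library. DESeq2 left 254 adjusted p-values undefined, and its calls, 34 higher (0.267%) and 70 lower (0.549%), are out of the other 12739. Ratios were compared by exact permutation of 4 against 5 libraries (smallest p 0.00794). The members, lists and tests were chosen with earlier results of these data known. Named outside the members were Ccnd1, Hsf1, up to 3 genes per list by p (mean of at least 50) and the 8 most correlated genes. The labels call each sample a mouse but name no litter or batch, so p-values measure only the spread between these samples. On simulated counts for 12993 genes in this comparison, limma recovered 84% of genes changed 2-fold and 49% of those changed 1.5-fold, with 14 unchanged genes among 147 calls. For DESeq2 these were 83%, 60%, 30 and 173. The simulation planted many changed genes, which makes the adjusted threshold easier to pass than in the data, where limma called 1 gene. These shares may therefore overstate what could be detected here. Gene positions are from GENCODE M21 (GRCm38). Figures were drawn with matplotlib 3.10.9. Depth limits cover counting error only.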

Additional observations from a re-analysis of the deposited data

Results flagged for a closer look

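Of 28 groups of values examined for a library far from the rest of its group, 2 had one, where chance gives about 1.4. In sgCcnd1 library I, Hspa8 had 7772 normalized counts where the remaining 4 sgCcnd1 libraries had 9509 to 10213, and Hsph1 and Dnajb1 were also lowest there among the 5. Library I had the fewest reads of all 9 (10840595). In sgCcnd1 library F, the log2 ratio of Hspa1a plus Hspa1b to Hspa8 was -7.03, with -6.45 to -6.22 in E, G, H and I. Hspa8 was highest and Hspa1b lowest in F among these 5 libraries.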

How the results depend on the processing

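No paired analysis was possible because no column has a replicate number. In every alternative run, 0 of the chaperone genes tested passed the adjustment and 0 were lower at an unadjusted p under 0.05 (9 genes, 8 at a minimum mean of 100, which leaves out Hspa1b, and 10 with no filter, which adds Hspa1a). Their median log2 fold change was 0.18 with quantile normalization and 0.20 to 0.28 when single libraries were left out. Of the 9, 4 were higher at an unadjusted p under 0.05. This count was 2 with quantile normalization (4.39% of all genes), 2 with edgeR without library H (3.19%), and 2 to 6 when single libraries were left out (3.72% to 6.97%). The count models and the list counts without H were added after the data were seen. Signs turned for Hspb1 without library A (-0.071, with up to 0.42 when another library was left out) and for Hspe1 without library D (0.019, with values down to -0.21 otherwise). Over all genes, limma called 1 lower. Quantile normalization gave 2, DESeq2 on all libraries 70, DESeq2 without H 25, edgeR without H 0, and limma without single libraries 0 to 2. Genes called higher numbered 0 by limma, also without single libraries, 34 by DESeq2 and 16 by DESeq2 without H. The cause was not tested. Without single libraries, the log2 ratio difference ranged from -0.46 to -0.21 for Hspe1 to Hspd1, from 0.087 to 0.18 for Hsp90aa1 to Hsp90ab1 and from 0.20 to 0.53 for Hspa1a plus Hspa1b to Hspa8, with exact permutation adjusted p from 0.0857 to 0.393. The floor of 3 reads per library, 2.29 to 4.26 normalized counts, lies at the level of Hspa1a.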
